A study of Rattus norvegicus with 9 samples.

Results

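The genes of cholesterol and fatty acid synthesis were followed across prostates of sham-operated rats, rats with androgen-induced benign prostatic hyperplasia (BPH) and rats with BPH that received ghrelin. The set held 36 genes, chosen by name for their place in the pathway and matched to the probes of a rat Agilent one-color array through the RefSeq accession that each probe carries. Of these 36 genes, 35 had a named probe and 34 gave a signal well above background on no fewer than 3 of the 6 arrays of a comparison, out of 26905 genes and unnamed targets on the array. Srebf1, which encodes a transcription factor of lipid synthesis, had no named probe. The probe for Acaca, the acetyl-CoA carboxylase of the cytosol, was not well above background on any of the 9 arrays and was left out.

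All animals were male Sprague Dawley rats, 6 weeks old at the start, and the prostates were removed after the 4 weeks of treatment. Sham rats underwent a sham operation, kept their testes, and received corn oil under the skin and distilled water by mouth. BPH rats were castrated, injected daily with dihydrotestosterone at 3 mg/kg for 4 weeks, and given distilled water by mouth. BPH+ghrelin rats were castrated and injected in the same way and received rat ghrelin at 20 nmol/kg by gavage each day for 2 weeks, beginning after the opening 2 weeks of androgen. Each group was measured on 3 arrays. The BPH and BPH+ghrelin arrays are described as separate rats, while the sham arrays are labelled only as numbered samples, so p-values measure the spread between these samples, which for sham may be technical. The doses are those of the methods, and another passage of the study names a different dose and route for ghrelin and calls the androgen testosterone. Which prostate lobes were taken is not given in the sources used here. BPH and sham rats differed in castration and in the injected androgen together, so these cannot be told apart, and the arrays include no castrated rats without androgen. BPH+ghrelin and sham rats differed in castration, androgen and ghrelin together, so only the comparison with BPH sets ghrelin apart.

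Cells make cholesterol from acetyl-CoA through the mevalonate pathway, which runs from HMG-CoA synthase to farnesyl diphosphate, and then through squalene and lanosterol to cholesterol. The genes of this route are switched on together by sterol regulatory element-binding proteins (SREBPs), which the escort protein SCAP carries from the endoplasmic reticulum to the Golgi when sterols are low, while the INSIG proteins hold the complex back when sterols are plentiful. Fatty acids are built from the same acetyl-CoA by ATP citrate lyase, acetyl-CoA carboxylase and fatty acid synthase, and are then elongated, desaturated and activated. Prostate epithelium is a lipid-producing tissue in which androgens are known to raise these enzymes.

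Some features of the arrays bear on all values. Sham replicate 2 was the dimmest array, with 61.4% of its probes well above background against 69.5% or more on the other arrays, and it was the lowest sham array for 26 of the 34 members. Within each group 1 array lay between the other arrays far more often than the rest: BPH replicate 2 for 28 of 34 members, BPH+ghrelin replicate 2 for 31 and sham replicate 3 for 31, beside 72.3%, 70.2% and 74.5% of all genes, and what this means for the p-values was not tested. By their scan times, replicate 1 of BPH+ghrelin was read together with the 3 arrays of BPH, its replicates 2 and 3 together with replicates 1 and 2 of sham, and sham replicate 3 by itself. The prostate secretory markers Pbsn, Sbp, Hoxb13, Krt8 and Krt18 were well above background on every array. In whole tissue, fewer cells of a type and less RNA per cell cannot be told apart. Differences were tested with limma, with p-values adjusted over all genes tested, and a gene is called where the adjusted p is under 0.05.

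In BPH prostates the members stood mostly above sham, and 3 of them rose. Insig2, Fdps and Sc5d passed the test, all 3 higher in BPH, against a background of 4.34% of all 19552 genes called, 2.16% higher and 2.18% lower. Of the 34 members, 30 had a positive difference and the median was 0.33 on the log2 scale, beside 53.7% of all genes and a median of 0.04. The lowest BPH array was above the highest sham array for 11 members (32.4%), beside 17.1% of all genes, and no member lay below all sham arrays, beside 14.2%. At an unadjusted p under 0.05 there were 10 members, all higher, beside 14.4% of all genes higher and 12% lower. These numbers leaned on single arrays and on the scaling. Without sham replicate 2, 23 of 34 members were higher, the median was 0.21 and 3 members were called, 2 of them the same. The count of called members was 0 without BPH replicate 2 (7 members at an unadjusted p under 0.05 in limma), 1 without BPH replicate 3, 1 without sham replicate 3 and 7 without sham replicate 1. When each array was scaled to its 75th percentile in place of quantile normalization, the median of all genes moved from 0.04 to -0.09, and 25 members were higher with a median of 0.14, which is 0.23 above the median of all genes, compared with 0.29 above it under quantile normalization. No scan held arrays of both BPH and sham, so here the scan and the group cannot be told apart, save by way of the ghrelin-treated rats, whose arrays fell in either scan. With scan as a fixed block, 0 members were called in limma, and 2 had an unadjusted p under 0.05, beside 7.04% of all genes.

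With ghrelin added to BPH, Mvd rose and Insig2 fell, and no other member passed the test. The background was 1.48% of 19749 genes called, 0.496% higher and 0.987% lower. The difference was positive for 24 of 34 members with a median of 0.23, beside 51.7% of all genes and a median of 0.02. All BPH+ghrelin arrays lay above all BPH arrays for 13 members (38.2%), beside 19.8% of all genes, and below them for Fads1 and Insig2 (5.88%), beside 19.3%. At an unadjusted p under 0.05 there were 7 members higher and 2 lower, beside 10.7% and 10.5% of all genes. All 10 enzymes of the squalene and sterol branch had a positive difference, from 0.06 to 0.59 with a median of 0.31. The sign turned for Lss without BPH replicate 1 and for Fdft1 without BPH replicate 3. None of the 10 passed the limma test and 2 had an unadjusted p under 0.05, and all 10 were also higher under 75th percentile scaling, with a median of 0.56. Under that scaling the median of all members was 0.46, against 0.10 for all genes, and 3 members were called, 2 higher and 1 lower. Both calls were sensitive to the arrays used: leaving out any 1 of the 6 arrays left 0 or 1 member called, the 1 being Mvd without BPH replicate 3, with 5 to 10 members at an unadjusted p under 0.05. Within the scan that held BPH+ghrelin replicate 1 and the 3 BPH arrays, 25 of 34 members were higher with ghrelin and the median was 0.31, a value with no test. With scan as a fixed block 0 members were called in limma and 3 had an unadjusted p under 0.05, beside 9.88% of all genes.

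BPH+ghrelin prostates differed from sham in 8 members, all of which rose. They were Mvd, Mvk, Acat2 and Fdps of the mevalonate pathway, Sc5d, Tm7sf2 and Nsdhl of the sterol branch, and Fasn, against a background of 6.29% of 19197 genes called, 2.99% higher and 3.3% lower. At an unadjusted p under 0.05 there were 19 members, all higher, beside 13.5% of all genes higher and 10.2% lower. Among the sterol members, 7 of 17 were called, and among the fatty acid members 1 of 12; the difference between these shares was not tested. A positive difference was found for 31 of 34 members with a median of 0.65, beside 54.4% of all genes and a median of 0.04. For 20 members (58.8%) every BPH+ghrelin array was above every sham array, beside 17.5% of all genes, and for no member was it the reverse, beside 12.8%. Without sham replicate 2 the median was 0.46 and 8 members were called, 6 of them the same. The count fell to 2 without BPH+ghrelin replicate 1, 1 without BPH+ghrelin replicate 2, 2 without BPH+ghrelin replicate 3 and 2 without sham replicate 3. With scan as a fixed block 0 members were called in limma, and 13 had an unadjusted p under 0.05, beside 13.3% of all genes. Within the scan shared by BPH+ghrelin replicates 2 and 3 and sham replicates 1 and 2, 31 of 34 members were higher and the median was 0.62. The 3 comparisons share their groups in pairs, so their values are given side by side and are not independent of each other.

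**Figure D1:**
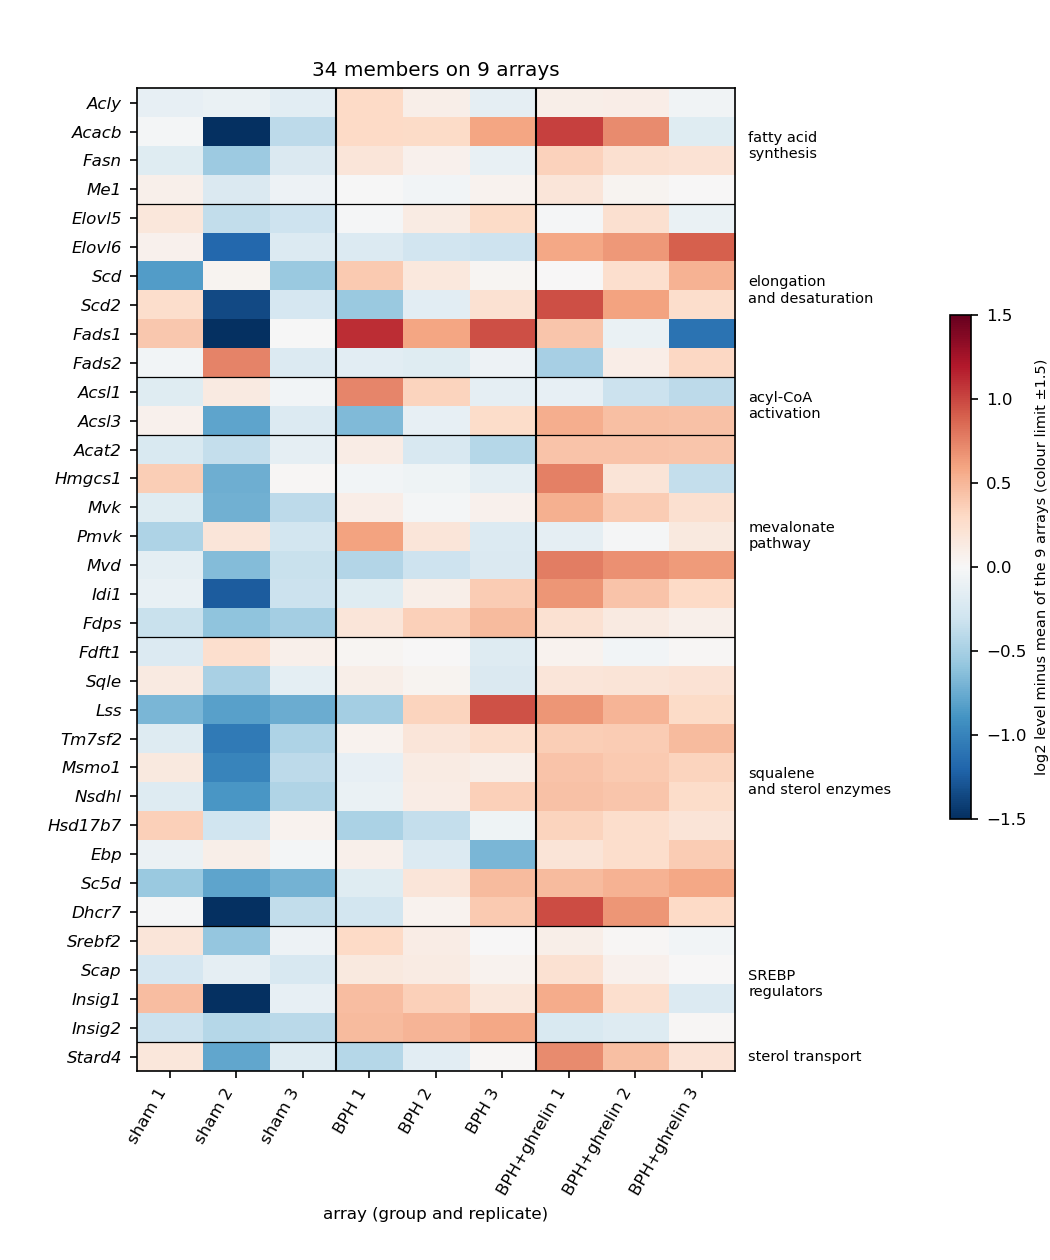
Level of each of the 34 members on each of the 9 arrays, as the log2 level minus the mean of the 9 arrays for that gene (colour; white is 0), with members grouped by role. Sham replicate 2 is the bluest column, and the sterol genes Mvd, Sc5d and Tm7sf2 are above their mean on all 3 BPH+ghrelin arrays.

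Promoters. Because most sterol members stood higher in the same direction, the 250 bases upstream of each member's transcription start were searched for short motifs in the RefSeq promoter set of build GRCr8, where 29 of the 36 members had an entry. Entries were not found for Acaca, Fasn, Elovl6, Pmvk, Fdft1, Sqle and Stard4. The CCAAT box (CCAAT, or ATTGG on the other strand) is bound by NF-Y, a factor known to act with SREBPs at sterol genes. It was found in 23 of 29 member promoters (79.3%), in 34.3% of all 27457 promoters of that length, in 35.8% of those of 9620 genes tested on the arrays and in 17 of 31 promoters of the other pathway genes described further on. The letters GGGCGG, a GC box bound by Sp1, were found on either strand in 21 members (72.4%), 32.4% of all promoters, 53.1% of those of tested genes and 21 of 31 other pathway genes. The sterol regulatory element as TCACNCCAC, on either strand, was found in no member promoter and in 0.976% of all promoters, which says only that these letters were not in these windows. With up to 1 mismatch it was found in 14 members (48.3%) and 19.9% of all promoters. The E-box CACGTG was found in 4 members (13.8%, against 5.79% of all promoters and 7.81% of those of tested genes) and the androgen half-site AGAACA in 3 (10.3%, against 17.1% and 11.5%). A match is a description of the sequence and not a site, and the other motifs, matched exactly, can share only end bases with CCAAT. A sterol regulatory element matched with 1 mismatch can share more bases with CCAAT, so these counts are not independent. The windows of 6 of the 8 called members with an entry are shown, chosen because they hold the box and span the mevalonate, sterol and regulator roles. Of the 2 not shown, Tm7sf2 also holds the box and Acat2 does not. The windows run from 250 bases upstream to the base before the start, 5′ to 3′ on the gene's strand, with CCAAT boxes of either strand in capitals:
Mvd, chr19:67414975-67415224, minus strand: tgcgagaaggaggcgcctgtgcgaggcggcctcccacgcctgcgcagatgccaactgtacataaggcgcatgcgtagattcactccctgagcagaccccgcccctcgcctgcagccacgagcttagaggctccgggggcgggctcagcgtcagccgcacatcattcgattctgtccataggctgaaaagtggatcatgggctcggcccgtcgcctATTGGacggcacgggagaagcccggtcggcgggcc
Mvk, chr12:47819504-47819753, minus strand: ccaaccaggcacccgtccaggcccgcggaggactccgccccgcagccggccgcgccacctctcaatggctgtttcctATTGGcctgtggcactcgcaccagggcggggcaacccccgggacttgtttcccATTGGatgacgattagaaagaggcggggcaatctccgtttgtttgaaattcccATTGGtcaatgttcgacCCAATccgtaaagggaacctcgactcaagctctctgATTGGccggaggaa
Fdps, chr2:176804817-176805066, minus strand: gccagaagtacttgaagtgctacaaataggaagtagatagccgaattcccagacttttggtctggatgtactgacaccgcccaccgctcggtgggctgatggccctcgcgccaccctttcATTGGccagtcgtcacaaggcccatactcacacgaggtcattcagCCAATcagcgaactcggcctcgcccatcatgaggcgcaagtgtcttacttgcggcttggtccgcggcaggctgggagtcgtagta
Nsdhl, chrX:155817110-155817359, plus strand: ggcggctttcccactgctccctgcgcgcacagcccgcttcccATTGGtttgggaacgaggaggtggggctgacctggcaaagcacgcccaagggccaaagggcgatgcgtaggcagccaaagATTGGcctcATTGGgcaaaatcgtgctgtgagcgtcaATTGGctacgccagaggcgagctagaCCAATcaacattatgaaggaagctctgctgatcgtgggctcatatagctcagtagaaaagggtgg
Sc5d, chr8:51538278-51538527, minus strand: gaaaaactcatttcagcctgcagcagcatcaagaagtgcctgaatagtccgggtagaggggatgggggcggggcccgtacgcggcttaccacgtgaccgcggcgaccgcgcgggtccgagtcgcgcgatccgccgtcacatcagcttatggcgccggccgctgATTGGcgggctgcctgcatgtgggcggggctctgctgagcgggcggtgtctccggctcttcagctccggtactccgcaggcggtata
Insig2, chr13:35040099-35040348, minus strand: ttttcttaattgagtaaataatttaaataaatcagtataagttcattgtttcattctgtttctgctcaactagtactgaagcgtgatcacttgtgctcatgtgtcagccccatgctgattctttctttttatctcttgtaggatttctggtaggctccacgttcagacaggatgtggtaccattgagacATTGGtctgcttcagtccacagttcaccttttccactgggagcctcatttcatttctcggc

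Mvk and Nsdhl each carried 5 CCAAT boxes in this window, Fdps 2, and Mvd, Sc5d and Insig2 1 each.

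Mevalonate pathway. Mvd, the decarboxylase that makes isopentenyl diphosphate, was the member most clearly set apart by ghrelin. Its log2 level was 9.28, 8.78 and 9.09 on the sham arrays (in the order of the replicate numbers, as throughout), 8.98, 9.11 and 9.21 on the BPH arrays and 10.19, 10.11 and 10.07 on the BPH+ghrelin arrays. Sham and BPH overlapped, and every BPH+ghrelin array was higher than both. In BPH+ghrelin, Mvd rose 2.04-fold over BPH (log2 difference 1.03, SE 0.15, adjusted p = 0.0249) and 2.11-fold over sham (1.08, SE 0.15, adjusted p = 0.00789). BPH and sham differed by 0.05 with a 95% interval from -0.29 to 0.39. The difference from sham stayed past the threshold in 6 of 6 fits that left out 1 array, the difference from BPH in 1 of 6. With scan as a fixed block both missed it (adjusted p = 0.136 and 0.256). In the scan with BPH+ghrelin replicate 1 and the BPH arrays the Mvd difference was 1.09, and in the scan with sham arrays it was 1.06.

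Fdps, which makes farnesyl diphosphate for sterols and for protein prenylation, showed a different order. It measured 13.86, 13.60 and 13.69 in sham, 14.39, 14.56 and 14.68 in BPH and 14.43, 14.34 and 14.28 in BPH+ghrelin. All 6 arrays from castrated, androgen-treated rats were above the sham arrays, and the BPH and BPH+ghrelin arrays overlapped. Fdps rose 1.77-fold in BPH over sham (0.82, SE 0.13, adjusted p = 0.0169) and 1.55-fold in BPH+ghrelin over sham (0.63, SE 0.13, adjusted p = 0.0294), calls that held in 3 and 2 of 6 fits without 1 array. The step from BPH to BPH+ghrelin was -0.19 (95% interval -0.49 to 0.11). A second Fdps probe gave 0.56 for BPH minus sham, 0.61 for BPH+ghrelin minus sham and, with the other sign, 0.047 for the step from BPH to BPH+ghrelin. With 75th percentile scaling the Fdps difference between BPH and sham was 0.45 (adjusted p = 0.107), and the step to BPH+ghrelin turned to 0.27.

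Mvk, the kinase that phosphorylates mevalonate, stood in the order sham, BPH, BPH+ghrelin with no overlap between groups. Its levels were 6.23, 5.70 and 6.02 in sham, 6.51, 6.39 and 6.48 in BPH and 6.95, 6.80 and 6.65 in BPH+ghrelin. Of the 3 comparisons only BPH+ghrelin against sham passed the test, with a rise of 1.76-fold (0.81, SE 0.16, adjusted p = 0.0259; held in 2 of 6 fits without 1 array), beside 0.47 for BPH minus sham (adjusted p = 0.117) and 0.34 for BPH+ghrelin minus BPH (adjusted p = 0.265). Acat2, the thiolase that joins acetyl-CoA units at the head of the pathway, measured 12.30, 12.17 and 12.39 in sham, 12.64, 12.28 and 12.10 in BPH and 12.95, 12.95 and 12.94 in BPH+ghrelin. The BPH+ghrelin arrays were nearly identical to each other and above the other 6. Acat2 rose 1.58-fold in BPH+ghrelin over sham (0.66, SE 0.15, adjusted p = 0.0445), a call lost in all 6 fits without 1 array. Its difference between BPH+ghrelin and BPH was 0.61 and was not called (adjusted p = 0.0927).

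The other members of this pathway did not pass the test. Pmvk, the kinase after Mvk, measured 9.25, 9.90 and 9.44 in sham, 10.33, 9.90 and 9.51 in BPH and 9.58, 9.70 and 9.86 in BPH+ghrelin, with wide overlap, and its step from BPH to BPH+ghrelin of -0.20 turned to 0.0070 without BPH replicate 1. Idi1, which isomerises isopentenyl diphosphate, was above all sham arrays in every BPH+ghrelin array (12.83 to 13.19 against 11.28 to 12.42) with a difference of 1.02 and an adjusted p of 0.0806. Hmgcs1, HMG-CoA synthase, spread widely in each of sham (12.99 to 14.10) and BPH+ghrelin (13.37 to 14.49), and its differences of 0.03 to 0.31 were inside that spread.

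**Figure D2:**
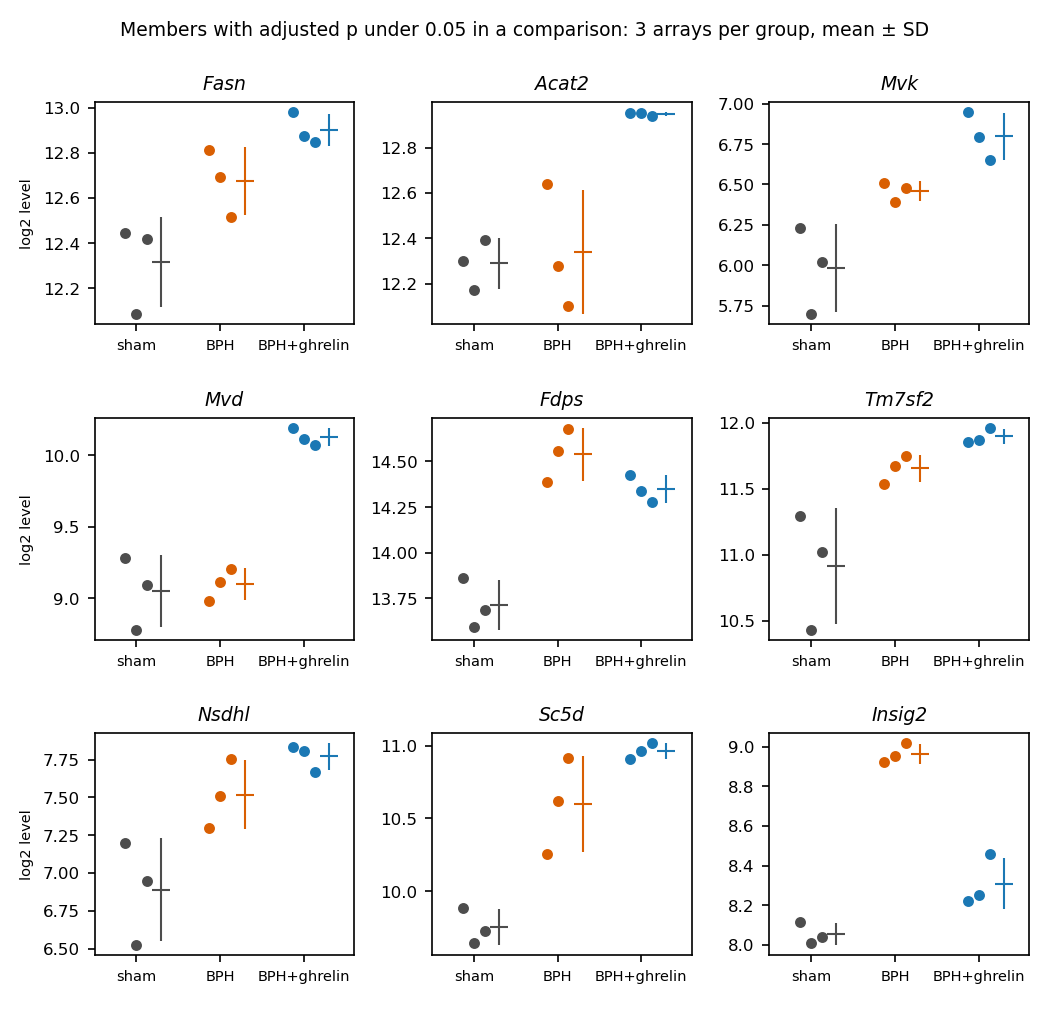
Log2 levels of the 9 members called in at least 1 comparison, with 1 point per array, and the mean ± SD of the 3 arrays of each group to the right of the points; each panel has its own axis range. Mvd is set apart in BPH+ghrelin, Insig2 in BPH, and Fdps and Sc5d are above sham in both androgen-treated groups.

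Squalene and sterol enzymes. Sc5d, the desaturase that makes dehydrocholesterol, was higher in both androgen-treated groups. It measured 9.88, 9.64 and 9.73 in sham, 10.26, 10.62 and 10.92 in BPH and 10.91, 10.97 and 11.02 in BPH+ghrelin. None of the BPH or BPH+ghrelin arrays overlapped with sham, and BPH replicate 3 lay among the BPH+ghrelin arrays. Sc5d rose 1.80-fold in BPH over sham (0.84, SE 0.17, adjusted p = 0.0383) and by 1.21 on the log2 scale in BPH+ghrelin over sham (SE 0.17, adjusted p = 0.00889). The larger difference held in 5 of 6 fits without 1 array and the smaller in 2 of 6, and without sham replicate 2 the smaller was 0.78 (adjusted p = 0.0597).

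Tm7sf2, a sterol reductase, and Nsdhl, a dehydrogenase that removes methyl groups after lanosterol and one of the promoters shown with 5 CCAAT boxes, followed a like order. Tm7sf2 measured 11.29, 10.43 and 11.02 in sham, 11.54, 11.68 and 11.75 in BPH and 11.85, 11.87 and 11.96 in BPH+ghrelin. Nsdhl measured 7.20, 6.52 and 6.95 in sham, 7.30, 7.51 and 7.75 in BPH and 7.83, 7.81 and 7.67 in BPH+ghrelin. Sham replicate 2 was far below the other sham arrays for both genes, and no sham array reached the level of any BPH or BPH+ghrelin array. In BPH+ghrelin over sham, Tm7sf2 rose 1.97-fold (0.98, SE 0.21, adjusted p = 0.0332) and Nsdhl 1.84-fold (0.88, SE 0.19, adjusted p = 0.0379). Without sham replicate 2 these differences were 0.74 (adjusted p = 0.0176) and 0.70 (adjusted p = 0.0391), and each call held in 2 of the 6 fits without 1 array. BPH minus sham gave 0.74 for Tm7sf2 (adjusted p = 0.0804) and 0.63 for Nsdhl (adjusted p = 0.1).

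Large differences in this branch could also miss the threshold. Lss, lanosterol synthase, which closes the sterol ring, measured 11.14, 11.01 and 11.08 in sham, 11.32, 12.15 and 12.78 in BPH and 12.48, 12.33 and 12.11 in BPH+ghrelin. The sham arrays were close together, while the BPH arrays spread over more than 1 log2 unit, and every BPH and BPH+ghrelin array was above every sham array. Lss differed by 1.01 (SE 0.32, adjusted p = 0.107) between BPH and sham and by 1.23 (SE 0.32, adjusted p = 0.0611) between BPH+ghrelin and sham, and under 75th percentile scaling the second was 1.33 with an adjusted p of 0.0389. Dhcr7, the reductase of the last step to cholesterol, measured 9.99, 8.28 and 9.64 in sham, 9.73, 10.05 and 10.40 in BPH and 10.98, 10.66 and 10.30 in BPH+ghrelin. Its difference of 1.35 between BPH+ghrelin and sham (SE 0.42, adjusted p = 0.1) became 0.83 without sham replicate 2.

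Hsd17b7 and Ebp were lower in BPH than in sham and higher in BPH+ghrelin than in BPH, without passing the test. Hsd17b7, a ketoreductase of sterol demethylation, measured 9.39, 8.74 and 9.09 in sham, 8.56, 8.68 and 8.98 in BPH and 9.37, 9.30 and 9.23 in BPH+ghrelin, a step of 0.56 with ghrelin (SE 0.19, adjusted p = 0.154). Ebp, the sterol isomerase, measured 14.23, 14.41 and 14.29 in sham, 14.39, 14.11 and 13.63 in BPH and 14.51, 14.58 and 14.70 in BPH+ghrelin, a step of 0.55 (SE 0.19, adjusted p = 0.162). For both genes all BPH+ghrelin arrays were above all BPH arrays. Fdft1, squalene synthase, at the branch into sterols, differed little: it measured 12.80, 13.25 and 13.07 in sham, 13.03, 13.01 and 12.80 in BPH and 13.05, 12.97 and 13.02 in BPH+ghrelin, and the 95% interval of its difference between BPH+ghrelin and sham ran from -0.36 to 0.30. Sqle, squalene epoxidase, and Msmo1, the methylsterol oxidase, were above all BPH arrays in every BPH+ghrelin array, by 0.23 and 0.36, and neither passed the test (adjusted p = 0.461 and 0.442).

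SREBP regulators and sterol transport. Insig2, the endoplasmic reticulum protein that retains the SCAP and SREBP complex, was the member most clearly set apart by BPH. It measured 8.12, 8.01 and 8.04 in sham, 8.92, 8.95 and 9.02 in BPH and 8.22, 8.25 and 8.46 in BPH+ghrelin. The BPH arrays lay together above all 6 others, and the BPH+ghrelin arrays lay just above sham without overlap. Insig2 rose 1.88-fold in BPH over sham (0.91, SE 0.11, adjusted p = 0.0069), a call that held in 5 of 6 fits without 1 array, and under 75th percentile scaling (0.88, adjusted p = 0.00836). It fell 1.57-fold from BPH to BPH+ghrelin (-0.66, SE 0.11, adjusted p = 0.0393), a call lost in all 6 fits without 1 array, while the direction held in each and the difference within the shared scan was -0.74. The remaining difference between BPH+ghrelin and sham was 0.25 (95% interval -0.01 to 0.51, adjusted p = 0.22).

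Insig1, Scap and Srebf2 did not pass the test in any comparison. Insig1, a strongly SREBP-driven gene, ranged from 11.13 to 13.55 in sham, where replicate 2 alone was low, from 13.25 to 13.55 in BPH and from 12.88 to 13.64 in BPH+ghrelin. Scap ranged from 11.79 to 11.91 in sham, 12.10 to 12.20 in BPH and 12.05 to 12.28 in BPH+ghrelin, so that both androgen-treated groups lay above sham, by 0.32 (adjusted p = 0.13) and 0.31 (adjusted p = 0.14). Srebf2, the SREBP most tied to cholesterol genes, differed by 0.29, -0.12 and 0.18 in the 3 comparisons, all within the spread of its arrays. From BPH to BPH+ghrelin all 4 regulators had a negative difference under quantile normalization, but 3 of 4 had a positive one under 75th percentile scaling, where Insig2 was the exception at -0.67. Stard4, which carries cholesterol between membranes, was above all BPH arrays in every BPH+ghrelin array (10.30 to 10.80 against 9.67 to 10.11), with a difference of 0.65 (adjusted p = 0.199) and of 0.88 on a second probe.

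**Figure D3:**
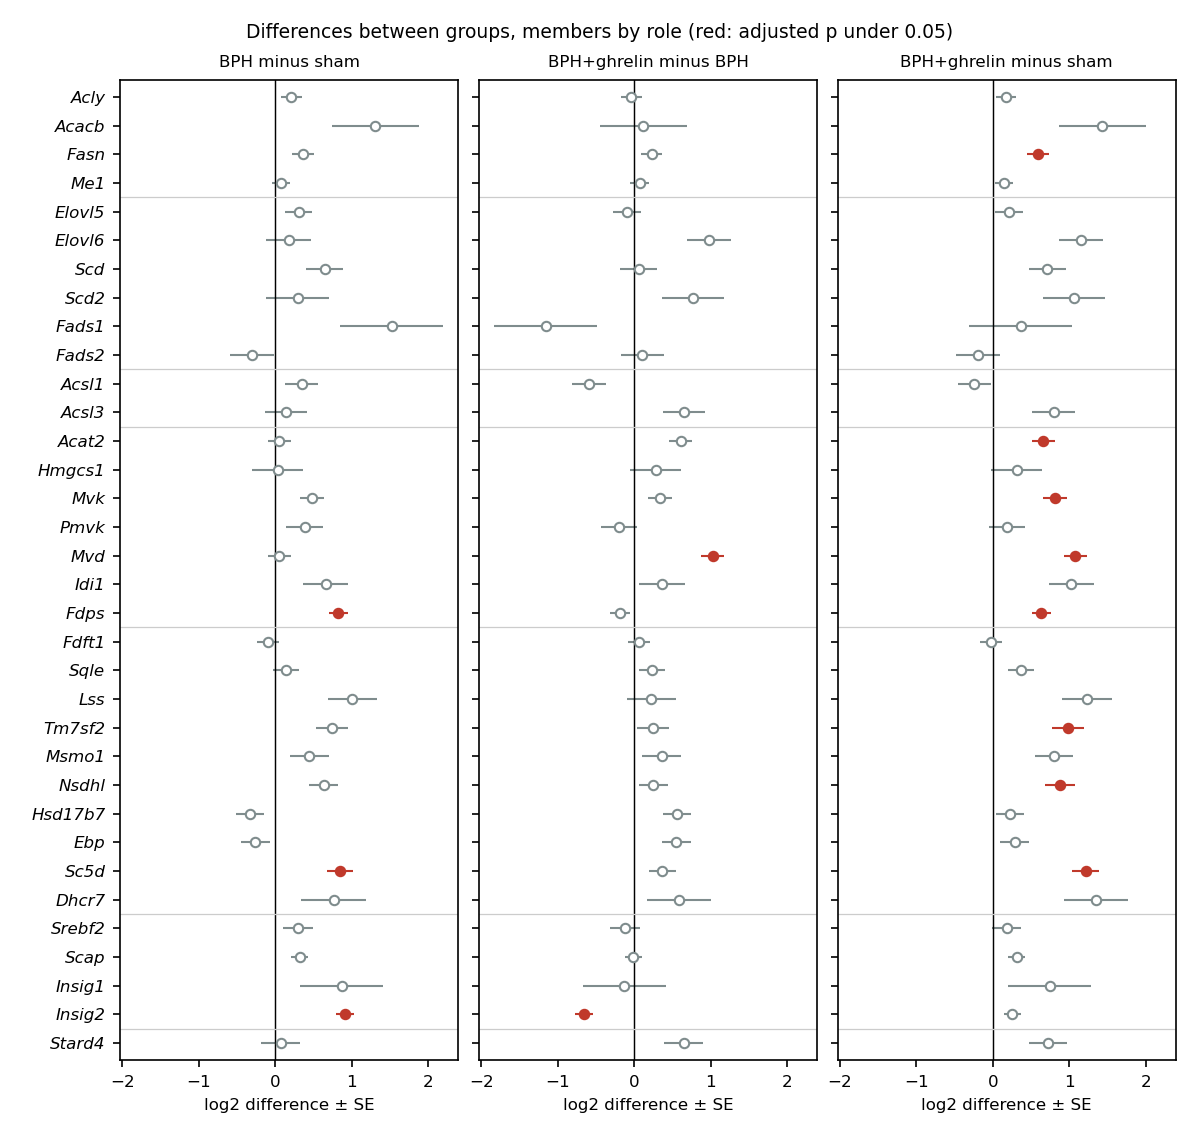
Log2 difference ± SE of each of the 34 members in each comparison, by role, with filled red points where the adjusted p is under 0.05. The differences of BPH+ghrelin from sham, in the right panel, include 8 called members, all to the right of 0.

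Fatty acid synthesis. Fasn, fatty acid synthase, was the one of the 12 tested fatty acid members that passed the test. It measured 12.44, 12.08 and 12.42 in sham, 12.81, 12.69 and 12.52 in BPH and 12.98, 12.88 and 12.85 in BPH+ghrelin. The groups did not overlap and stood in the order sham, BPH, BPH+ghrelin. Fasn rose by 0.59 on the log2 scale in BPH+ghrelin over sham (SE 0.14, adjusted p = 0.0493), which held in 1 of 6 fits without 1 array and was 0.47 (adjusted p = 0.0544) without sham replicate 2. The differences of BPH from sham (0.36, adjusted p = 0.161) and of BPH+ghrelin from BPH (0.23, adjusted p = 0.388) did not pass.

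Acacb, the mitochondrial acetyl-CoA carboxylase whose product restrains fatty acid oxidation, had large differences with large errors. It measured 5.38, 3.08 and 5.01 in sham, 5.70, 5.69 and 6.00 in BPH and 6.43, 6.11 and 5.22 in BPH+ghrelin, and it was not well above background on sham replicate 2, the lowest value. Its difference of 1.31 between BPH and sham (SE 0.57, adjusted p = 0.189) became 0.61 without that array, and the difference of 1.43 between BPH+ghrelin and sham (adjusted p = 0.175) became 0.73. Acly, the ATP citrate lyase, and Me1, the malic enzyme that supplies NADPH, differed by -0.04 to 0.21 over the comparisons. For Me1 a second probe gave 0.53 for BPH minus sham, where the probe used gave 0.07.

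Elongation, desaturation and activation. None of the 8 members passed the limma test. At an unadjusted p under 0.05, the 6 elongases and desaturases counted 1, 1 and 3 and the 2 activating enzymes 0, 2 and 1 in BPH against sham, BPH+ghrelin against BPH and BPH+ghrelin against sham, beside 26.5%, 21.1% and 23.7% of all genes. Elovl6, an elongase of saturated fatty acids, measured 11.23, 9.98 and 10.97 in sham, 10.96, 10.88 and 10.86 in BPH and 11.75, 11.82 and 12.06 in BPH+ghrelin. All BPH+ghrelin arrays were above the other 6. Its differences were 0.98 from BPH (SE 0.29, adjusted p = 0.122) and 1.15 from sham (SE 0.29, adjusted p = 0.0553), and the latter was 0.78 with an adjusted p of 0.0198 without sham replicate 2. A second Elovl6 probe gave 0.67 and 1.16 for the same differences.

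The stearoyl-CoA desaturases Scd and Scd2, which introduce the double bond of oleate, ordered the arrays differently. Scd2 measured 13.74, 12.12 and 13.23 in sham, 12.92, 13.32 and 13.72 in BPH and 14.45, 14.08 and 13.74 in BPH+ghrelin, with every BPH+ghrelin array above every BPH array, an overlap with sham replicate 1, and a difference from BPH of 0.77 (SE 0.41, adjusted p = 0.314). Scd ranged from 7.97 to 8.85 in sham, 8.83 to 9.20 in BPH and 8.80 to 9.32 in BPH+ghrelin, and differed from sham by 0.65 and 0.71 in the androgen-treated groups (adjusted p = 0.147 and 0.124). Fads1, the delta-5 desaturase of polyunsaturated fatty acids, had low signals of 4.10, 1.43 and 3.69 in sham, 4.81, 4.30 and 4.67 in BPH and 4.11, 3.61 and 2.59 in BPH+ghrelin, and was not well above background on sham replicate 2 and BPH+ghrelin replicate 3. The BPH arrays were the highest 3, by 1.52 over sham (adjusted p = 0.194) and with BPH+ghrelin at -1.16 from them (adjusted p = 0.356).

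Fads2, the delta-6 desaturase, measured 4.57, 5.36 and 4.40 in sham, 4.45, 4.43 and 4.53 in BPH and 4.11, 4.71 and 4.92 in BPH+ghrelin, with sham replicate 2 alone above the rest. Its difference of -0.20 between BPH+ghrelin and sham turned to 0.09 without that array. Acsl1 and Acsl3 activate long-chain fatty acids to their CoA esters. Acsl3 measured 10.54, 9.68 and 10.27 in sham, 9.81, 10.35 and 10.74 in BPH and 11.02, 10.93 and 10.92 in BPH+ghrelin, a step of 0.65 from BPH (SE 0.28, adjusted p = 0.228) with no overlap. Acsl1 went the other way, at 12.35, 12.67 and 12.49 in sham, 13.27, 12.88 and 12.40 in BPH and 12.42, 12.22 and 12.15 in BPH+ghrelin, a difference of -0.59 from BPH (SE 0.22, adjusted p = 0.183) with overlap through BPH replicate 3. Elovl5, an elongase of polyunsaturated fatty acids, ranged from 4.25 to 4.90 over the 9 arrays.

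Other genes of the pathway. A further 40 genes of sterol synthesis, SREBP processing, cholesterol handling and fatty acid metabolism were examined in the same fit, of which 36 to 38 were tested in a comparison. In BPH over sham, 4 of 37 were called, 2 higher and 2 lower, beside 4.34% of all genes called. In BPH+ghrelin over BPH, 1 of 38 was called, Soat1, which was lower, beside 1.48%. In BPH+ghrelin over sham, 6 of 36 were called, 4 higher and 2 lower, beside 6.29%. None of the 5 tested genes of SREBP processing and turnover, of 6 listed, among them the SREBP protease genes Mbtps1 and Mbtps2, passed the limma test in BPH+ghrelin against BPH, where 1 had an unadjusted p under 0.05, beside 21.1% of all genes. All 5 had a negative difference, under 75th percentile scaling too, where 51.7% and 58.4% of all genes had a positive one under the respective scalings. The median differences of the tested genes were 0.33, -0.01 and 0.11, beside 0.04, 0.02 and 0.04 for all genes.

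Tmem97, a membrane protein that is induced when sterols are low, measured 7.04, 7.16 and 6.99 in sham, 7.16, 7.63 and 8.07 in BPH and 7.95, 7.94 and 7.93 in BPH+ghrelin. Its BPH+ghrelin arrays were nearly equal and above every sham array. Tmem97 rose 1.83-fold in BPH+ghrelin over sham (0.88, SE 0.21, adjusted p = 0.0476; 0.0606 under 75th percentile scaling). Cyp51, the lanosterol demethylase, measured 11.67, 11.23 and 11.45 in sham, 11.59, 11.68 and 11.70 in BPH and 12.08, 11.94 and 11.90 in BPH+ghrelin. All BPH+ghrelin arrays were above the other 6, by 0.52 over sham (adjusted p = 0.062) and 0.32 over BPH (adjusted p = 0.236), without passing the test.

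Soat1, which esterifies cholesterol for storage, was highest in BPH, as was Insig2. It measured 3.49, 3.91 and 3.81 in BPH, and 2.76, 1.87 and 1.15 in sham and 1.96, 1.69 and 0.97 in BPH+ghrelin, where it was not well above background on any array. Soat1 was thus at least 1.54-fold higher in BPH than in sham and at least 2.05-fold higher in BPH than in BPH+ghrelin. These bounds set each dim array at the lowest signal well above background where the probe was lower, and were not themselves tested. The limma calls (adjusted p = 0.0486 and 0.0454) were for the differences without the bound, 1.81 on the log2 scale against sham. Soat1 was tested because its probe passed the background filter on the 3 BPH arrays alone, so it could be called only as higher in BPH, and the counts above that include it share this limit. Under 75th percentile scaling both Soat1 differences missed the threshold (adjusted p = 0.0712 and 0.0516). Elovl4, an elongase of very long fatty acids, was likewise not well above background in BPH+ghrelin, with a bound of at least 2.99-fold higher in BPH. It was not called in limma (adjusted p = 0.0809, without the bound). In this comparison it too passed the filter on the BPH arrays alone and could come out only as higher there. Npc2, which moves cholesterol out of lysosomes, measured 9.82, 9.52 and 9.66 in sham, 8.56, 8.59 and 8.47 in BPH and 8.65, 8.88 and 9.04 in BPH+ghrelin, with no overlap between any groups. It fell by 1.13 in BPH against sham (SE 0.14, adjusted p = 0.0069) and by 0.82 in BPH+ghrelin against sham (SE 0.14, adjusted p = 0.0181). Elovl7 rose by 0.98 and 0.92 over sham in the androgen-treated groups (adjusted p = 0.0395 and 0.0374), and Acss2, which makes acetyl-CoA from acetate, rose by 0.59 in BPH+ghrelin over sham (adjusted p = 0.0398; 0.104 under 75th percentile scaling). Thrsp, a nuclear protein of lipogenic tissue, fell by 1.92 in BPH against sham (SE 0.42, adjusted p = 0.0445), from 7.48, 9.02 and 8.14 to 6.85, 6.37 and 5.64, and measured 6.88, 7.11 and 7.37 in BPH+ghrelin. Fads3 fell by 0.54 in BPH+ghrelin against sham (adjusted p = 0.0434).

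**Figure D4:**
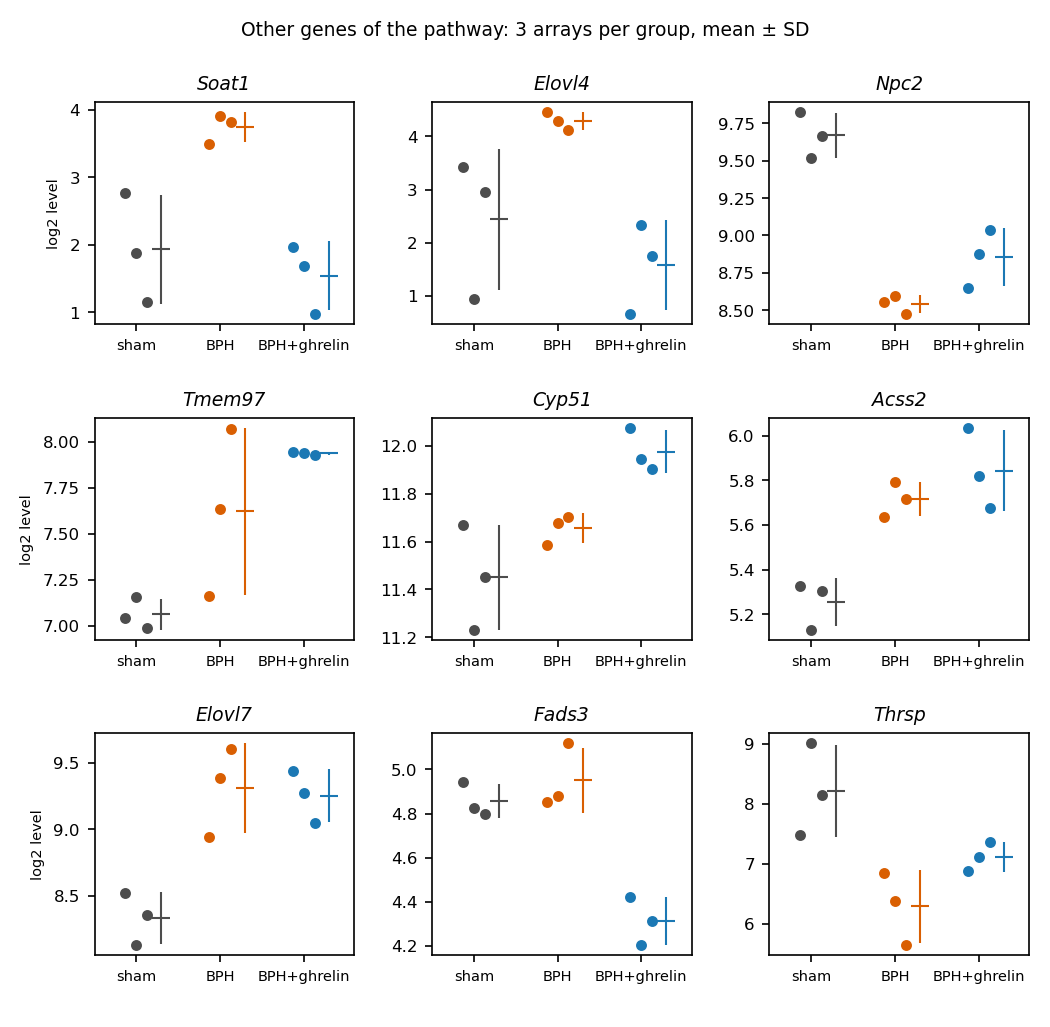
Log2 levels of 9 further genes of the pathway, with 1 point per array and the mean ± SD of the 3 arrays of each group; each panel has its own axis range. Npc2 is highest in sham, Soat1 is high in BPH, and the Soat1 points of sham and BPH+ghrelin and the Elovl4 points of BPH+ghrelin are not well above background.

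The levels of cell type markers differed between arrays and groups beside these genes. The log2 of the summed level of 10 secretory epithelium markers was 18.6 to 18.8 in sham, 18.2 to 18.5 in BPH and 18.1 to 18.4 in BPH+ghrelin, a sum carried by its brightest genes. By single gene, 6 of the 10 were higher and 4 lower in BPH than in sham: Pbsn fell by 2.65 (SE 0.23, adjusted p = 0.0019) and Krt8 rose by 0.96 (SE 0.13, adjusted p = 0.0091). In BPH+ghrelin against sham 4 were higher and 6 lower, with Pbsn at -1.89 and Krt8 at 0.75 (adjusted p = 0.0046 and 0.017). Basal epithelium (4 of 4 markers) stood at 12.1 to 12.6, 12.3 to 12.8 and 12.8 to 12.9 in sham, BPH and BPH+ghrelin, immune cells (5 of 6) at 9.73 to 9.96, 9.60 to 10.03 and 9.34 to 9.42, and endothelium (3 of 4) at 10.1 to 10.5, 9.63 to 10.3 and 9.55 to 9.78. In these 3 sums BPH+ghrelin did not overlap with sham, higher for basal epithelium and lower for the others. By single gene, 2 of 4 basal markers were higher and 2 lower, and 4 of 4 immune and 3 of 3 endothelial markers tested were lower. Fibroblast markers (6 of 6) gave 13.7 to 14.5, 14.2 to 14.9 and 14.2 to 14.7, with overlap. In BPH+ghrelin 4 of the 6 were higher and 2 lower than in sham, and 1 was higher and 5 lower than in BPH. Of the basal markers, Krt15 rose by 1.21 in BPH+ghrelin over sham (adjusted p = 0.017) and Krt14 by 0.72 in BPH over sham (adjusted p = 0.0447). Among the 4 basal markers, 3 were higher in BPH than in sham and 1 was lower, Tp63 at -0.73. Lum of fibroblasts fell in BPH+ghrelin by 1.42 against sham and by 1.65 against BPH (adjusted p = 0.0145 and 0.024). Ptprc of leukocytes fell by 0.78 and 0.82 in the same comparisons (adjusted p = 0.019 and 0.037), and Pecam1 of endothelium fell by 0.62 against sham (adjusted p = 0.0434). Against BPH, 2 of the 4 immune markers tested were higher in BPH+ghrelin and 2 lower. Striated muscle markers (6 of 6, with Myh4 not well above background on any array) summed to 8.16 to 9.13 over all 9 arrays, with the groups overlapping. Ckm, muscle creatine kinase, fell by 1.90 in BPH and 1.96 in BPH+ghrelin against sham (adjusted p = 0.0045 and 0.0026). Of the 5 striated muscle markers tested, 2 were higher and 3 lower than sham in BPH, and likewise in BPH+ghrelin. Genes of seminal vesicle secretion, 5 of 6 with a probe, summed to 16.5 to 17.3 in sham, 9.48 to 14.8 in BPH and 9.09 to 11.9 in BPH+ghrelin. Of these, Svs4 and Svs3a passed the test as lower than sham in both other groups, and Semg1 in BPH+ghrelin. The other 2 of the 5, Svs5 and Svs6, were higher than sham in both groups without being called. Msmb of the secretory list also passed it as lower in BPH+ghrelin than in sham. The sum for smooth muscle, over 7 of 7 markers, was 14.1 to 14.9, 14.1 to 15.1 and 14.1 to 14.2. All 7 had a negative difference in BPH+ghrelin against both sham and BPH, and Myh11, smooth muscle myosin, fell by 1.07 and 0.96 (adjusted p = 0.00245 and 0.0157). Adipocyte markers, 7 of 8 with a probe and with Lep not well above background on any array, varied within groups, from 9.68 to 13.3 in sham, 11.6 to 12.7 in BPH and 8.99 to 13.0 in BPH+ghrelin, and the groups overlapped. For 10 of the 34 members, Mvd, Fdps, Lss, Nsdhl, Idi1, Dhcr7, Hsd17b7, Scd2, Acsl3 and Stard4, the arrays of every group stood in the reverse order of the adipocyte sum, beside 9.83% of all genes, and for Scd, Pmvk and Ebp in the same order, beside 7.95%. The smooth muscle and striated muscle sums ranked the arrays of each group in exactly the reverse of the adipocyte sum, so the same 10 members followed their order. The part of these tissue differences in the results was not tested.

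**Figure D5:**
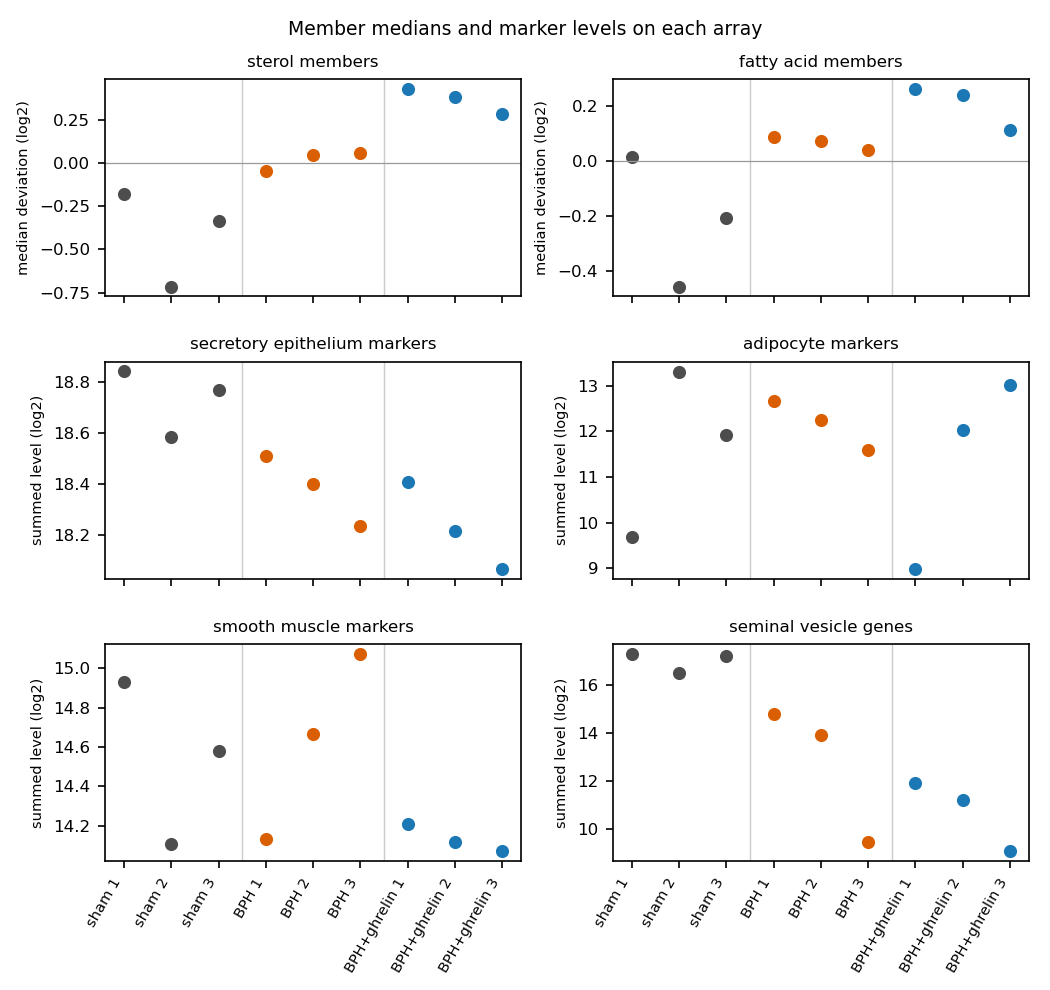
Median deviation of the 17 sterol and 12 fatty acid members from their 9-array means, and log2 summed levels of marker genes, on each array; each panel has its own axis range. The sterol members are lowest in sham and highest in BPH+ghrelin, while the seminal vesicle genes are highest in sham and the adipocyte markers vary within each group.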

How the data were processed

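RNA of 9 rat prostate samples was hybridized to Agilent one-color arrays. The deposited scanner files hold spot intensity values after Feature Extraction background correction, and the series table holds log2 values that the authors quantile normalized with GeneSpring. Control spots and spots with an outlier mark were dropped, spots of a probe averaged on the processed signal, quantile normalized over the 9 arrays and set to log2. Of 30356 probes, 17998 received a symbol through their accession. Testing was limited to genes with a probe that passed the scanner's background mark on 3 or more of the 6 arrays compared, and used the brightest such probe. All groups entered 1 limma (version 3.58.1, R 4.3.3) fit, two-sided, Benjamini-Hochberg adjusted. On simulated data of the same size, 38.5%, 35.4% and 46.6% of 2-fold changes were recovered in the comparisons of BPH with sham, BPH+ghrelin with BPH and BPH+ghrelin with sham. The number of arrays limits the precision. Members and lists were chosen with earlier results of these data known. Members named with their levels on each array are those called in any comparison and, per comparison and direction, the 4 with the largest difference; the other pathway genes named are those called, the 2 largest each way and Cyp51, with some genes that are in the counts not reported here. Arrays were also scaled to their 75th percentile, corrected with normexp, filtered differently, blocked by scan or replicate, and left out in turn.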

Additional observations from a re-analysis of the deposited data

How the results depend on the processing

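The count of called members depended on the processing. In BPH against sham (3 called), 75th percentile scaling, a fit on only the 6 arrays compared and the replicate block each gave 1, scan as a fixed block 0, scan as a random block 14 (with a negative consensus correlation, -0.216 to -0.208) and leaving out 1 array 0 to 7; the median of 0.33 was 0.14 under 75th percentile scaling and 0.21 to 0.44 without 1 array. In BPH+ghrelin against BPH (2 called), no filter on dim probes gave 1, the replicate block 0, scan as a fixed block 0, as a random block 4, and leaving out 1 array 0 to 1; the median of 0.23 was 0.46 under 75th percentile scaling and 0.18 to 0.28 without 1 array. In BPH+ghrelin against sham (8 called), 75th percentile scaling gave 12, no filter 4, only the 6 arrays 5, the replicate block 2, scan as a fixed block 0 and leaving out 1 array 1 to 11; the median of 0.65 was 0.46 to 0.69 without 1 array. With scan as a fixed block in limma, 2, 3 and 13 members had an unadjusted p under 0.05, beside 7.04%, 9.88% and 13.3% of all genes, and the medians were 0.28, 0.31 and 0.62. Whether replicate numbers pair the samples was not settled by correlations. Deviations of same-numbered arrays correlated at -0.14 to 0.30, and only 1 of 9 such pairs exceeded 0.1. Differently numbered arrays of BPH+ghrelin and sham correlated at -0.31 to 0.33. Signs turned for 9 of 34 members in BPH against sham without sham replicate 2 (Acat2, Acsl3, Elovl6, Fdft1, Hmgcs1, Mvd, Scd2, Sqle and Stard4) and for 5, 5 and 1 members under 75th percentile scaling in the 3 comparisons. Among the members named for their size, Fads2 in BPH against sham was 0.21 with scan as a fixed block, and without 1 array Fdft1 there ran from -0.21 (without sham replicate 1) to 0.011 (without sham replicate 2); Pmvk in BPH+ghrelin against BPH likewise ran from -0.40 (without BPH replicate 3) to 0.0070 (without BPH replicate 1); in BPH+ghrelin against sham, Fads2 ran from -0.38 (without sham replicate 3) to 0.092 (without sham replicate 2), with 0.04 without BPH+ghrelin replicate 1, and Fdft1 from -0.15 (without sham replicate 1) to 0.076 (without sham replicate 2), with 0.057 under 75th percentile scaling. The cause of these changes was not tested. The deposited matrix, normexp, a filter on all 6 arrays, the mean over probes and a robust, trended variance each kept each count within 1.5 times its value. Signals close to background limit Fads1 and Acacb.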
